A study of Mus musculus with 12 samples.

Results

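The transcription factors described here are 10 genes that set or keep the supporting cell fate of the gonad: Foxl2, Foxo1, Nr5a1, Nr5a2, Gata4, Gata6, Wt1, Sox9, Dmrt1 and Nr0b1. Every probe set whose annotation named only that gene was taken, which gave 23 of the 34945 single-gene probe sets tested (10 of 18193 genes). Probe sets were taken by gene name alone. The genes themselves were chosen with earlier results of these data known. Of these, 18 probe sets belong to the 7 factors counted here on the granulosa side (Foxl2, Foxo1, Nr5a1, Nr5a2, Gata4, Gata6 and Wt1) and 5 to Sox9, Dmrt1 and Nr0b1.

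The study measured RNA of granulosa cells, taken by puncturing antral follicles of mice on a mixed C57BL/6J;129S5/SvEvBrd background, on 12 single-colour Affymetrix arrays. There were 4 groups of 3 samples, wild type and Inha-/- (no inhibin alpha subunit), each under both hormone regimes. All mice were 21 days old at injection and all received 5 IU of PMSG, a gonadotropin that grows follicles, for 44 to 46 h. The PMSG groups were collected then. The hCG groups received a further 5 IU of hCG, which stands in for the ovulatory luteinizing hormone surge, and were collected 6 h later. The deletion is carried by every cell of the mouse, and no group lacks PMSG, so no array shows an unprimed ovary. The labels do not say whether mice were pooled.

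Granulosa cells of the ovary and Sertoli cells of the testis come from a shared precursor of the gonadal ridge. Wt1, Gata4 and Nr5a1 build that ridge in both sexes. In the testis Sox9 and Dmrt1 then direct and hold the Sertoli fate, while in the ovary Foxl2 holds the granulosa fate and keeps Sox9 low. Inhibin, made by granulosa cells, restrains pituitary follicle-stimulating hormone and opposes activin, and mice without its alpha subunit are known for gonadal stromal tumours. Luteinizing hormone turns granulosa cells towards the luteal fate.

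Promoter sequence in RefSeq (GRCm38.p6) was given for 4 of the 10 genes. These 4 genes, taken because they had sequence, all fell after hCG in wild type cells. The 250 bases before the transcription start are shown for Foxl2 (chr9:98955357-98955606, plus strand), Foxo1 (chr3:52268087-52268336, plus strand), Nr5a2 (chr1:136960449-136960698, minus strand) and Nr0b1 (chrX:86191525-86191774, plus strand). Each reads 5′ to 3′ along the gene, and capitals mark matches to the motifs named after them.
Foxl2: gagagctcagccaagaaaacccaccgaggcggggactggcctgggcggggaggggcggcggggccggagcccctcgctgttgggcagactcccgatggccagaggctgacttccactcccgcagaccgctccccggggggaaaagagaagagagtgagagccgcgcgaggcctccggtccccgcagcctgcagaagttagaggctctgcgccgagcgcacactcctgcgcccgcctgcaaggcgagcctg
Foxo1: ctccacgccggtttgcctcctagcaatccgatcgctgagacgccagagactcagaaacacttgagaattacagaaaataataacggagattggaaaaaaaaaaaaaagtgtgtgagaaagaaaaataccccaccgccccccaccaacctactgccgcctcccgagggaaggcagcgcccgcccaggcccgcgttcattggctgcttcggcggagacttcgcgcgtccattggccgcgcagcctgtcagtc
Nr5a2: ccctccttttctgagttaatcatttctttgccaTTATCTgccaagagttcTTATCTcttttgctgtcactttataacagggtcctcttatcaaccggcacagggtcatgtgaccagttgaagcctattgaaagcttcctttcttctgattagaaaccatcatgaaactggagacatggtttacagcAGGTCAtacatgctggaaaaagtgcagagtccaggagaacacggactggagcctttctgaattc
Nr0b1: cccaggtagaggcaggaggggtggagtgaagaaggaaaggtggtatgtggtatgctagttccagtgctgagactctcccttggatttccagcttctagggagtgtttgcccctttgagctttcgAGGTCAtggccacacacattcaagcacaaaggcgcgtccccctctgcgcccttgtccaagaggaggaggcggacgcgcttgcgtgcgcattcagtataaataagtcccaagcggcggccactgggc
Both strands were searched for 4 motifs, chosen after the sequences were seen. The nuclear receptor half-site AGGTCA lay 126 to 121 bases before the Nr0b1 start and 64 to 59 bases before the Nr5a2 start, and 14% of all 32851 promoter windows of this length hold it. The GATA element AGATAA lay at 2 places of the Nr5a2 window on the opposite strand, 217 to 212 and 200 to 195 bases before the start, against 9.99% of windows. The forkhead element GTAAACA (3.17% of windows) and the cyclic AMP response element TGACGTCA (1.55%) had no match in these 4 windows or in the other Nr5a2 window of the table (chr1:136953631-136953880, minus strand). The 4 motifs do not overlap in these windows. A match is a run of letters and not a measured binding site.

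Each value is a log2 difference from the probe set's median over the 12 arrays, as deposited, so it gives no level and does not show whether a gene was expressed. Values of different probe sets therefore cannot be ranked against each other. Array medians lay between -0.0197 and 0.093 and array SDs between 0.371 and 0.727, highest on wild type hCG replicate 3. By the serial number in the array name, 7 arrays were early (every wild type PMSG array, knockout PMSG 1 and 2, and replicate 1 of both hCG groups) and 5 were late. The mean of the hybridization control probe sets ran from -1.17 to -0.0284 on early arrays and from 0.779 to 1.31 on late ones. Serial number thus moves with hormone and, after PMSG, with 1 knockout array. Values from early arrays alone are given below beside the members' called differences. Only replicate 1 of each hCG group is early, so early values of hCG comparisons rest on 1 hCG array a group. The number of arrays limits the precision, and differences carry an SE or a 95% interval. Inha itself matched the genotype labels on all 12 arrays, with 5.40 to 5.87 in wild type and -7.40 to -5.40 in the knockout. Its knockout minus wild type difference was -12.38 after PMSG (limma, adjusted p = 6.6e-06) and -12.81 after hCG (adjusted p = 1.61e-06).

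The factors separated into 3 patterns. Wt1 was lower in the knockout under both regimes and did not move with hCG. Nr0b1 stood high on the wild type PMSG arrays and on wild type hCG replicate 2. Foxl2, Foxo1, Nr5a2 and Gata4 fell in wild type cells 6 h after hCG. None of the 23 probe sets passed the test for an hCG response in the knockout, where 0.1% of all probe sets were called lower. No member passed the test of the difference between the genotypes' responses (smallest limma adjusted p = 0.0919), so a different response is not shown. No probe set of Sox9 or Dmrt1 passed any test. The comparisons share arrays, since each group enters 2 pairwise comparisons, so they are not independent of one another.

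**Figure D1:**
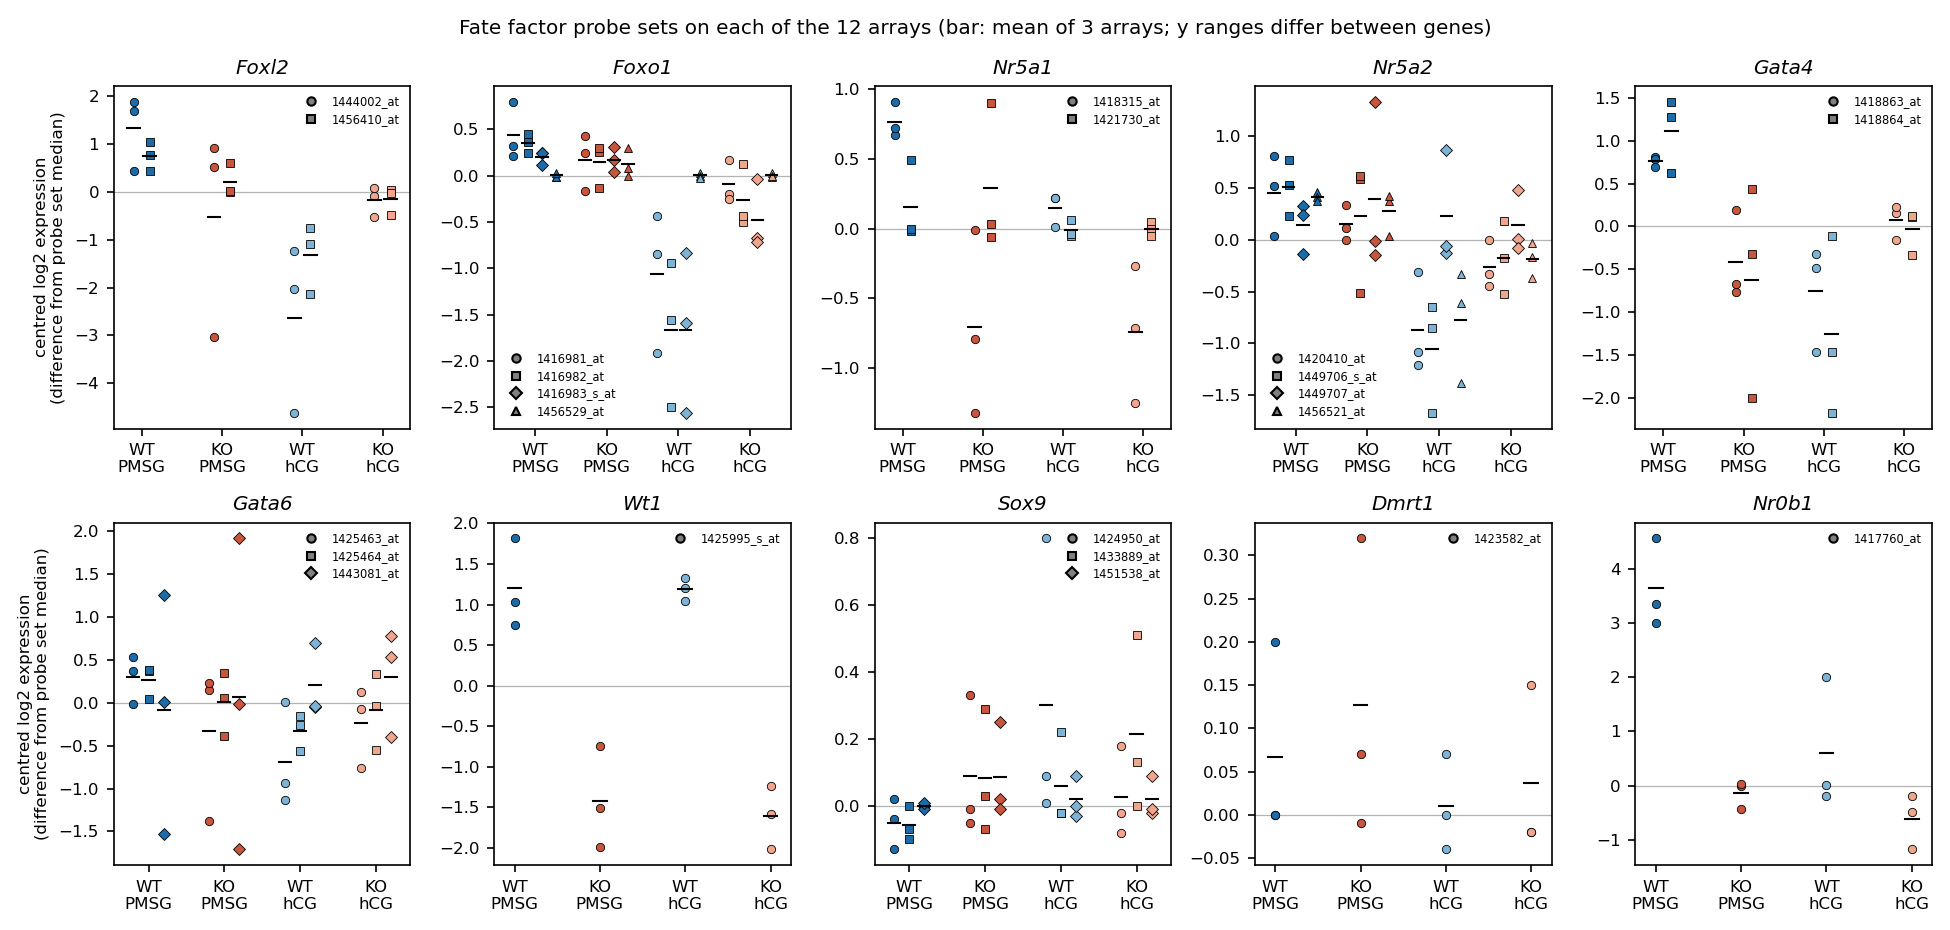
Value of the member probe sets on each of the 12 arrays, as log2 differences from the probe set's median, by group (WT wild type, KO Inha knockout); each point is 1 array, each bar the mean of 3, and y ranges differ between genes. Wt1 separates the genotypes, Nr0b1 stands high on the 3 wild type PMSG arrays (3.0 to 4.57), and Sox9 and Dmrt1 stay near 0.

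The first comparison asks how loss of inhibin alpha altered PMSG-primed granulosa cells. After PMSG, 3 of the 23 probe sets were lower in the knockout (Wt1, Nr0b1 and 1 of 2 for Nr5a1), against 1.6% of all probe sets, and 0 were higher, against 1.44% (limma, Benjamini-Hochberg adjusted p under 0.05). At an unadjusted p under 0.05 there were 5, against 14.6% of all probe sets. The 3 knockout arrays lay wholly below the 3 wild type arrays for 5 member probe sets of 4 genes (7.68% of all probe sets), and wholly above for 0 (10.1%). The median difference was -0.262 over the members and 0.039 over all probe sets.

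Wt1 encodes a zinc finger factor needed for the gonadal ridge, and follicular somatic cells and the ovarian surface epithelium carry it. Its probe set (1425995_s_at) read 1.82, 0.75 and 1.03 in wild type and -1.51, -0.75 and -1.99 in the knockout after PMSG. After hCG it read 1.05, 1.20 and 1.33 in wild type and -2.02, -1.24 and -1.58 in the knockout. All 6 wild type arrays stood above all 6 knockout arrays. The difference was -2.62 after PMSG (SE 0.356, 6.13-fold lower, limma adjusted p = 0.00658) and -2.81 after hCG (SE 0.356, 6.99-fold lower, adjusted p = 0.00124). Both differences passed in every fit that left out 1 array. On the early arrays the PMSG difference was -2.33 (adjusted p = 0.16) and with the replicate number as a block its adjusted p was 0.0516. The hCG difference was -3.07 on early arrays, which hold 1 hCG array of each genotype, and -2.67 on late ones. Within the pairs of PMSG arrays that share the number in the array name it was -3.32 and -1.50. Wt1 did not differ detectably with hormone. The hCG change was -0.01 in wild type (95% interval -0.81 to 0.79) and -0.20 in the knockout (-1.0 to 0.60).

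Nr0b1 encodes DAX1, an orphan nuclear receptor that represses NR5A1 and is known for its dosage effect on sex determination. Its probe set (1417760_at) read 4.57, 3.0 and 3.35 in wild type and -0.01, -0.43 and 0.02 in the knockout after PMSG. After hCG it read 0.01, 2.01 and -0.19 in wild type and -1.18, -0.19 and -0.49 in the knockout. The wild type PMSG arrays stood above all others, and wild type hCG replicate 2 stood next. The knockout difference after PMSG was -3.78 (SE 0.597, 13.7-fold lower, limma adjusted p = 0.012). It was -3.86 on the early arrays alone (adjusted p = 0.108), and -4.58 and -3.44 within the pairs sharing an array-name number. After hCG the difference was -1.23 and did not pass (95% interval -2.57 to 0.11, adjusted p = 0.269), and the nearest arrays of the 2 genotypes both rounded to -0.19.

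Nr5a1 encodes steroidogenic factor 1, which drives the genes of steroid synthesis. Probe set 1418315_at read 0.91, 0.67 and 0.72 in wild type and -0.01, -1.32 and -0.79 in the knockout after PMSG. After hCG it read 0.22, 0.22 and 0.01 in wild type and -1.25, -0.27 and -0.71 in the knockout. The genotypes did not overlap under either regime. The difference was -1.47 after PMSG (SE 0.319, 2.77-fold lower, adjusted p = 0.0433) and -0.90 after hCG (adjusted p = 0.113, 95% interval -1.62 to -0.18). The PMSG call passed in 3 of the 12 fits that left out 1 array, those without knockout PMSG replicate 1, knockout hCG replicate 1 or knockout hCG replicate 2. It also failed with the replicate block (adjusted p = 0.0834), and it was -1.43 on early arrays (adjusted p = 0.318). The second probe set, 1421730_at, lay within -0.06 to 0.90 on all arrays with overlapping groups, and the pair correlated at -0.075 over the 12 arrays.

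Gata4, a zinc finger factor of the gonadal ridge and of granulosa cells, was lower on all 3 knockout arrays after PMSG without passing the test. Probe set 1418863_at read 0.69, 0.81 and 0.79 in wild type and 0.19, -0.77 and -0.67 in the knockout. The difference was -1.18 (95% interval -1.90 to -0.45, adjusted p = 0.0977). For 1418864_at it was -1.75 (-3.22 to -0.28, adjusted p = 0.231), and knockout PMSG replicate 3 read -2.01 there. Foxl2 read -0.55 (-1.32 to 0.22) and -1.87 (-4.37 to 0.63) by its 2 probe sets. The differences of the remaining 16 probe sets after PMSG lay between -0.63 and 0.25, and none passed.

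**Figure D2:**
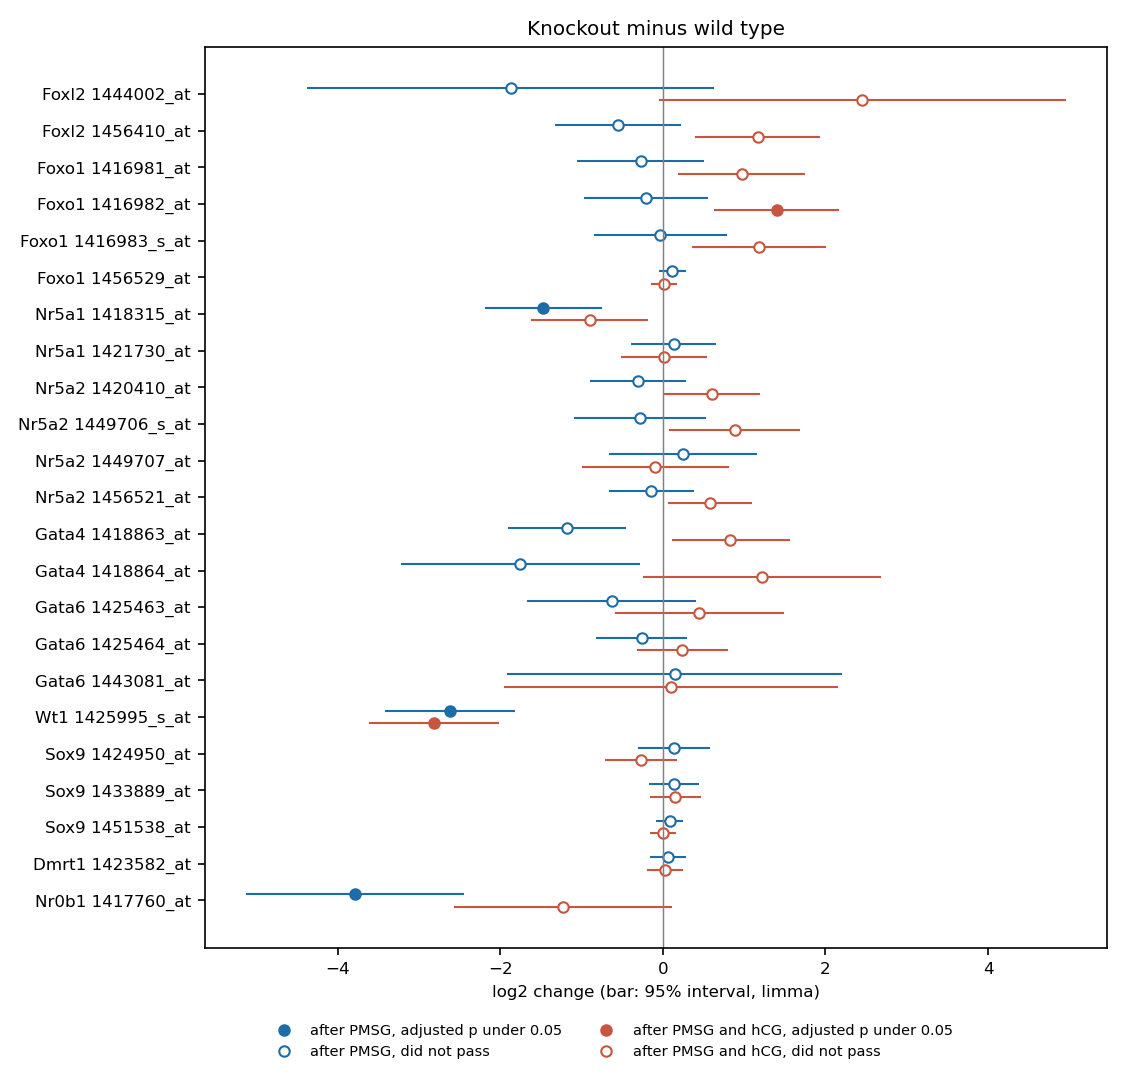
Knockout minus wild type log2 change of each member probe set after PMSG and after PMSG with hCG; the point is the difference of means of 3 arrays each, the bar its 95% interval, and filled points passed the adjusted p threshold. Wt1 lies near -2.62 and -2.81, Nr0b1 at -3.78 after PMSG, and the Foxl2, Foxo1, Nr5a2 and Gata4 points lie below 0 after PMSG and above 0 after hCG, Nr5a2 1449707_at and Foxo1 1456529_at excepted.

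The next question was how the wild type factors responded to the ovulatory signal. In wild type cells, 11 of the 23 probe sets fell with hCG (Foxl2, Foxo1, Nr5a2, Gata4 and Nr0b1), against 6.17% of all probe sets, and 0 rose, against 5.98% (limma). At an unadjusted p under 0.05 there were 12, against 23.3% of all probe sets. The hCG arrays lay wholly below the PMSG arrays for 13 members of 7 genes (15.4% of all probe sets) and wholly above for 0 (13.1%). The median change was -0.987 over the members and 0.005 over all probe sets. Of the wild type hCG arrays, replicates 2 and 3 share the number in the array name. With the number in the array name as a random block 1 of the 11 calls remained, Foxl2 1456410_at, and on the early arrays alone 3 member probe sets passed.

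Foxl2, the forkhead factor that holds granulosa identity, fell on both probe sets. Probe set 1456410_at went from 0.44, 1.05 and 0.78 after PMSG to -1.09, -0.76 and -2.13 after hCG in wild type cells, with no overlap. The change was -2.08 (SE 0.342, 4.24-fold lower, limma adjusted p = 0.00493), and it passed in every fit that left out 1 array. It was -1.85 on early arrays, which hold only replicate 1 of the wild type hCG group. Probe set 1444002_at went from 0.43, 1.89 and 1.70 to -1.24, -2.02 and -4.62, a change of -3.97 (SE 1.11, adjusted p = 0.0481), and of -2.58 on early arrays. That call passed in 3 of 12 fits that left out 1 array, those without knockout PMSG replicate 2, knockout PMSG replicate 3 or wild type hCG replicate 1.

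In the knockout, 1456410_at read -0.01, 0.61 and 0.01 after PMSG and 0.04, -0.03 and -0.48 after hCG. These groups overlapped and the change was -0.36 (95% interval -1.13 to 0.41, adjusted p = 0.848). For 1444002_at it was 0.36 (-2.15 to 2.86), with knockout PMSG replicate 3 at -3.04 and the other knockout arrays between -0.52 and 0.92.

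Foxo1, the forkhead factor that PI3K and AKT signalling keeps out of the nucleus, fell on 3 of its 4 probe sets. Probe set 1416982_at went from 0.36, 0.25 and 0.45 to -1.56, -0.94 and -2.50 in wild type cells, with no overlap. The change was -2.02 (SE 0.341, 4.05-fold lower, adjusted p = 0.00567) and it was -1.91 on early arrays. The changes of 1416983_s_at and 1416981_at were -1.86 (adjusted p = 0.0111) and -1.50 (adjusted p = 0.0215), the second failing without wild type PMSG replicate 1 or 2. On early arrays they were -1.79 and -1.28. In the knockout 1416982_at read 0.26, 0.30 and -0.13 after PMSG and 0.13, -0.50 and -0.43 after hCG, a change of -0.41 (95% interval -1.18 to 0.36). The 3 responding probe sets correlated with one another at 0.946 to 0.979 over the arrays. The fourth, 1456529_at, lay within -0.02 to 0.30 throughout and correlated with them at 0.085 to 0.334.

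Nr5a2 encodes LRH-1, the nuclear receptor that granulosa cells need for ovulation and luteinization. It fell on 3 of its 4 probe sets. Probe set 1456521_at went from 0.46, 0.41 and 0.37 to -0.61, -0.33 and -1.38, a change of -1.18 (SE 0.233, 2.27-fold lower, adjusted p = 0.011). The changes of 1420410_at and 1449706_s_at were -1.32 (adjusted p = 0.0117) and -1.57 (adjusted p = 0.0209). The latter failed without wild type PMSG replicate 2 or 3 or wild type hCG replicate 3. On the early arrays the 3 changes were -1.02, -1.53 and -1.16. In the knockout 1456521_at read 0.37, 0.42 and 0.03 after PMSG and -0.03, -0.37 and -0.17 after hCG. Those groups did not overlap either, and the change of -0.47 did not pass (95% interval -0.99 to 0.06, adjusted p = 0.623). The fourth probe set, 1449707_at, changed by 0.08 in wild type cells (-0.83 to 0.99).

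Gata4 fell on both probe sets in wild type cells. The hCG arrays read -0.32, -0.49 and -1.47 for 1418863_at, below every PMSG array, and the change was -1.52 (SE 0.323, 2.86-fold lower, adjusted p = 0.0154). It failed without wild type PMSG replicate 2. For 1418864_at the change was -2.38 (SE 0.651, adjusted p = 0.044), and that call passed in 3 of 12 fits that left out 1 array, those without knockout PMSG replicate 1 or 3 or wild type hCG replicate 1. On early arrays the 2 changes were -1.08 and -1.23. In the knockout, 1418863_at read 0.16, 0.23 and -0.16 after hCG against 0.19, -0.77 and -0.67 after PMSG, a change of 0.49 (-0.23 to 1.22). Gata6, a GATA factor that overlaps with Gata4 in granulosa cells, did not pass on any of its probe sets, 1425463_at, 1425464_at and 1443081_at. In that order its wild type hCG changes were -0.99 (-2.03 to 0.05), -0.59 (-1.15 to -0.03) and 0.29 (-1.77 to 2.34). Its knockout hCG changes were 0.10, -0.09 and 0.24.

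Nr0b1 fell with hCG in wild type cells by 3.03 on the log2 scale (SE 0.597, 8.18-fold lower, adjusted p = 0.0111), and the change was -3.64 on early arrays. In the knockout, where it was already low after PMSG, the change was -0.48 (95% interval -1.82 to 0.86).

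**Figure D3:**
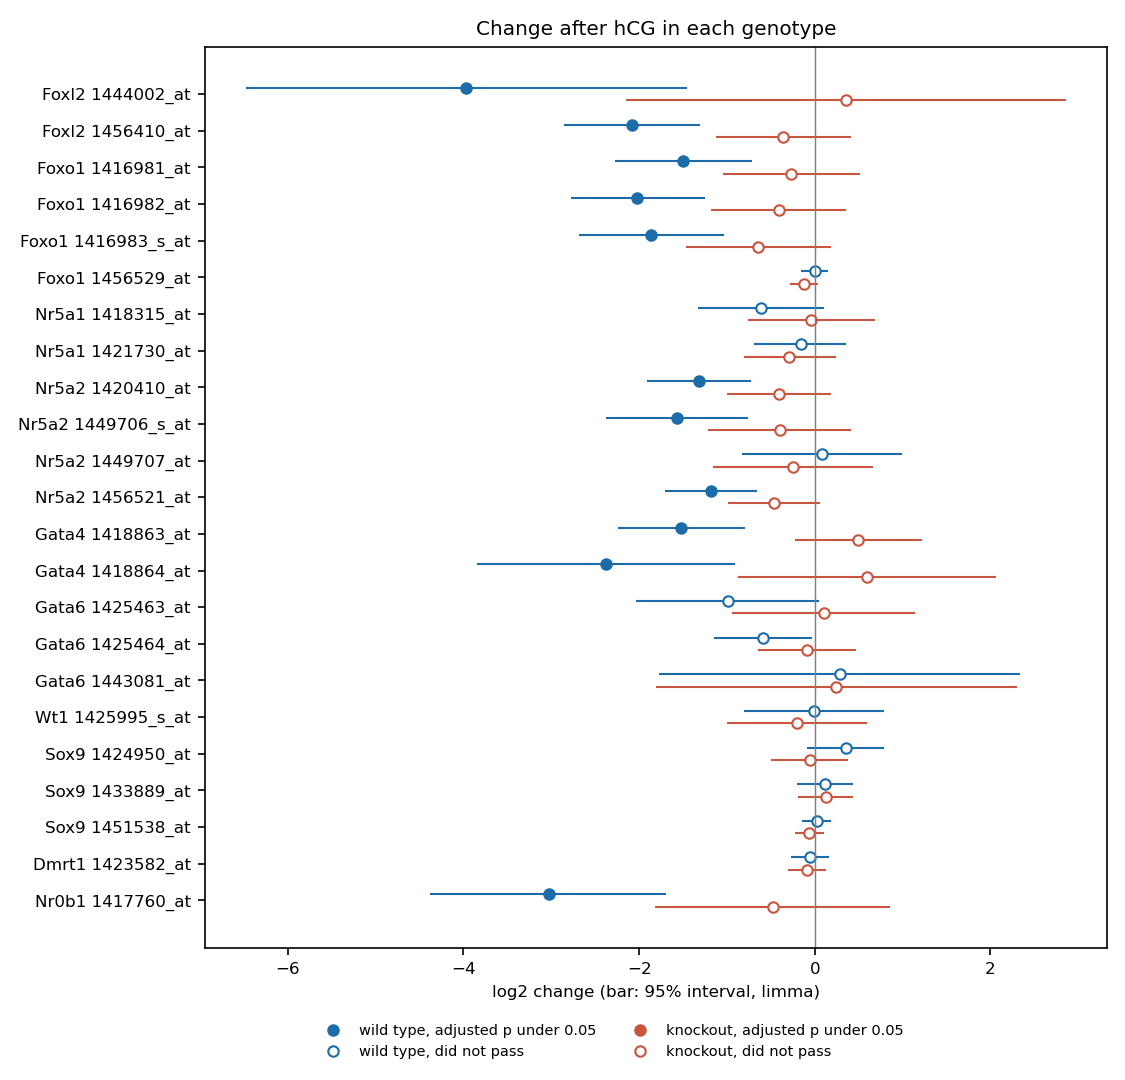
Change of each member probe set 6 h after hCG, as hCG minus PMSG on the log2 scale, in wild type and knockout cells; bars are 95% intervals from limma and filled points passed the adjusted p threshold. All 11 filled points are wild type and lie below 0, from -1.18 to -3.97, and no knockout point is filled.

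None of the 23 probe sets passed in the knockout's own hCG response, against 1.1% of all probe sets higher and 0.1% lower, and 0 did so at an unadjusted p under 0.05, against 9.3% of all probe sets (limma). The hCG arrays lay wholly below the PMSG arrays for 2 members (5.41% of all probe sets) and wholly above for 0 (5.19%). The median change was -0.122 for the members and -0.036 for all. The difference between the responses was tested by the interaction, and 0 members passed, against 0.209% of all probe sets higher and 0.721% lower (limma). At an unadjusted p under 0.05 there were 10 members, against 10.5% of all probe sets. The smallest adjusted p was that of Gata4 1418863_at, 0.0919, with an interaction of 2.01 (95% interval 0.98 to 3.04). For Foxl2 1456410_at the interaction was 1.72 (0.64 to 2.81, adjusted p = 0.179) and for Foxo1 1416982_at 1.61 (0.52 to 2.69, adjusted p = 0.214). It was 0.72 (-0.02 to 1.46, adjusted p = 0.501) for Nr5a2 1456521_at and 2.55 (0.65 to 4.45, adjusted p = 0.271) for Nr0b1. A weaker hCG response of these genes in the knockout is therefore not shown by this test.

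Comparing the genotypes directly after hCG, 1 member probe set was higher in the knockout (Foxo1 1416982_at), against 6.58% of all probe sets, and 1 was lower (Wt1), against 5.55%. Both shares are near those of all probe sets. The knockout arrays lay wholly above the wild type arrays for 7 members of 4 genes (13.8% of all probe sets) and wholly below for 3 (12.6%). At an unadjusted p under 0.05 there were 10, against 23.2% of all probe sets. The Foxo1 difference was 1.40 (SE 0.341, 2.64-fold higher, adjusted p = 0.0271). It failed without wild type hCG replicate 1 or any of the knockout hCG arrays, with the replicate block (adjusted p = 0.0672), with the array-name number as a random block and on the late arrays alone. It was 1.69 on early and 1.25 on late arrays. Foxl2 1456410_at was 1.17 higher (95% interval 0.40 to 1.94) and did not pass (adjusted p = 0.0564).

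Sox9 and Dmrt1, the Sertoli fate factors, showed no detectable difference between any groups. Their 4 probe sets (Sox9 1424950_at, 1433889_at and 1451538_at, given in that order below, and Dmrt1 1423582_at) lay within -0.13 and 0.80 on every array and the groups overlapped in every comparison. The knockout differences after PMSG for Sox9 were 0.14 (95% interval -0.30 to 0.58), 0.14 (-0.17 to 0.45) and 0.09 (-0.08 to 0.25). The Dmrt1 difference was 0.06 (-0.16 to 0.28) after PMSG and 0.03 (-0.19 to 0.25) after hCG. After hCG the Sox9 differences were -0.27 (-0.71 to 0.17), 0.15 (-0.16 to 0.47) and 0.00 (-0.16 to 0.16). The wild type hCG changes were 0.35, 0.12 and 0.02 for Sox9 and -0.06 for Dmrt1, and the knockout changes were -0.06, 0.13, -0.07 and -0.09. Their SDs over the arrays stood at the 24.0 to 47.7 percentiles of all probe sets, against 98.2 for Wt1 and 99.2 for Nr0b1. Since the values are centred, a transcript below detection and one that is steadily present look alike here. The single highest Sox9 value, 0.80, was on wild type hCG replicate 2.

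Of the 16 ovarian fate partner genes listed with these factors (40 probe sets), 2 genes were lower in the knockout after PMSG and 0 higher. Bmp2, a ligand that acts with Foxl2 on follistatin, read 3.51, 2.21 and 2.22 in wild type and -1.47, -2.20 and -0.63 in the knockout, a difference of -4.08 (adjusted p = 0.00596). Runx1, a factor that works beside Foxl2 in the fetal granulosa lineage, was at -1.66. After hCG 3 of these genes were lower in the knockout, at -4.27 for Runx1, -0.78 for the forkhead gene Foxo3 and -2.39 for Bmp2. Fst, the activin-binding follistatin, was 1.51 higher. Runx1 read 4.86, 5.00 and 5.74 on the wild type hCG arrays and 0.37, 1.39 and 1.04 on the knockout ones. With hCG 2 genes rose and 3 fell in wild type cells. Runx1 changed by 6.02, the ligand gene Wnt4 by 1.82, Fst by -1.35 and Esr2, oestrogen receptor beta, by -2.48. In the knockout Runx1 rose by 3.41.

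Of the 14 testis fate partner genes measured (24 probe sets), 1 was higher in the knockout after PMSG and 0 lower. That gene was Cyp26b1, which degrades retinoic acid, at 1.44, 1.11 and 1.02 in the knockout against -0.14, -0.01 and -0.10 in wild type (difference 1.28, adjusted p = 0.000791). After hCG 3 testis partner genes were higher in the knockout and 1 was lower. By probe set these were 5 and 1 of the 24. Dhh, the hedgehog ligand of Sertoli cells that granulosa cells also make, was 3.81 higher. It read 0.02, 0.07 and 0.41 in the knockout and -3.63, -2.55 and -4.73 in wild type, where it fell by 3.67 with hCG. Fgfr2, the receptor of the Sertoli signal FGF9, was 1.35 higher, Tcf21 was 2.76 higher and Gadd45g was at -1.82. Tcf21 is also on the gonadal ridge list and among the theca and stroma markers below, which were mostly higher in the knockout. In the knockout's hCG response Cyp26b1 fell by 1.12 and Fgfr2 rose by 1.13.

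Among 10 gonadal ridge regulators (26 probe sets), 4 genes were lower in the knockout after PMSG and 0 higher, and after hCG 4 were lower and 3 higher. By probe set, 5 of the 26 were lower after PMSG, and 4 were lower and 3 higher after hCG. Cited2, a cofactor of WT1 at the Nr5a1 gene, read -0.02, 0.08 and 0.02 in wild type and -1.51, -2.37 and -2.30 in the knockout after PMSG (difference -2.09). The others lower after PMSG were Emx2 (-1.75), Podxl (-1.88) and Insr (-0.89). After hCG the differences were -2.85 for Podxl, a sialomucin whose gene WT1 regulates in the kidney, 1.02 for Cbx2, -1.37 for Emx2 and -1.16 for Cited2. Cited2 rose with hCG by 1.19 in wild type and 2.12 in the knockout, and Cbx2 fell by 0.61 in wild type.

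Of 8 NR5A target genes measured (14 probe sets), 3 were lower in the knockout after PMSG, Inha itself among them, and 4 after hCG, with 0 higher. By probe set, 5 of the 14 were lower after PMSG and 8 after hCG. Star, which brings cholesterol into mitochondria, was at -4.60 after PMSG and -2.95 after hCG, and Cyp11a1, the first enzyme of steroid synthesis, at -3.23 and -2.29. Scarb1, a lipoprotein receptor, was at -1.19 after hCG. Star rose with hCG by 7.04 in wild type and 8.68 in the knockout. Scarb1 rose by 1.12 and Hsd3b1 fell by 0.40 in wild type, and Cyp11a1 rose by 1.43 in the knockout.

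Of 13 FOXO target genes (29 probe sets), 5 were lower in the knockout after PMSG and 0 higher, and after hCG 6 were lower and 1 higher. By probe set, 7 of the 29 were lower after PMSG, and 6 were lower and 4 higher after hCG. Sesn3, a stress-response sestrin, was at -1.19 after PMSG and -1.15 after hCG. Pik3ip1, an inhibitor of PI3K, was at -3.37 after PMSG, and Insr and Cited2 also belong to this list. After hCG Klf2 was at -2.89 and the apoptosis gene Bcl2l11 at 1.19. In the wild type hCG response Klf2 changed by 2.61, Sesn1 by -0.96 and Pik3ip1 by -2.72. Of 15 cofactors and regulators of FOXO1, GATA and NR5A factors (43 probe sets), 1 gene was lower after PMSG, the coactivator Ncoa1 (-0.80), and 1 was higher and 2 lower after hCG. Those were the corepressor Nrip1 (2.14), Ncoa1 (-0.67) and Foxo3. Nrip1 fell with hCG in wild type cells by 1.60. By probe set, 2 of the 43 of this last list were lower after PMSG, and 1 was higher and 2 lower after hCG. After hCG neither share exceeded that of all probe sets. The medians of these 6 lists after PMSG lay between -0.571 and 0.052, beside 0.039 for all probe sets.

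Of these lists' 54 named calls, 31 passed in every fit that left out 1 array, and all 54 kept their sign in every alternative. On the early arrays alone 46 of the 54 did not pass, among them Bmp2, Cyp26b1, Cited2 and Star after PMSG (adjusted p = 0.0834, 0.0582, 0.11 and 0.122), Podxl after hCG (0.183) and Esr2 in the wild type hCG response (0.119). With the replicate block 19 did not pass. By array left out, wild type hCG replicate 3 ended 15 calls, replicate 1 ended 7 and replicate 2 ended 2. Wild type PMSG replicates 1, 2 and 3 ended 11, 10 and 9. In the same order the knockout PMSG arrays ended 3, 7 and 5 calls and the knockout hCG arrays 5, 7 and 8. The fewest of the 12 fits passed for Tcf21 after hCG, with 4. After PMSG Pik3ip1 passed in 6, Ncoa1 in 7 and Runx1 in 8, and between genotypes after hCG Cited2 and Nrip1 passed in 7 and Bmp2 and Ncoa1 in 8. In the hCG responses Cbx2 passed in 5, Cited2 in 7 and Pik3ip1 in 8 (wild type) and Cyp11a1 in 6 (knockout).

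The dissected cells were checked against markers of other ovarian cells. Theca and stroma markers were higher in the knockout, with 4 of 13 genes higher and 1 lower after PMSG and 7 higher and 0 lower after hCG. Gli2, Myh11 and Col3a1 were 2.73, 2.87 and 1.80 higher after PMSG and Aldh1a1 was at -2.35, while after hCG Gli2, Myh11, Acta2 and Col3a1 were 2.52, 3.71, 2.74 and 1.96 higher. Aldh1a1 fell with hCG in wild type cells by 1.82. The list's median per array ran from -0.416 to -0.076 in wild type and 0.427 to 1.639 in the knockout after PMSG, and from -1.122 to -0.448 and 0.024 to 2.33 after hCG. Oocyte markers were higher for 2 of 14 genes after PMSG (Zp2 3.65 and Gdf9 3.19) and 6 after hCG, led by Zp3 (6.61), Zp2 (5.72), Zp1 (4.34) and Gdf9 (3.36). Their array medians ran from -0.269 to -0.094 against 0.331 to 1.506 after PMSG, and from -0.723 to -0.128 against 0.062 to 2.408 after hCG. Surface epithelium markers, which include keratins, were lower for 4 of 9 genes after PMSG (Upk3b -1.44, Krt8 -1.58, Krt19 -1.49 and Krt18 -1.49) and 5 after hCG (Krt18 -2.23, Krt8 -1.46, Cdh1 -1.57 and Krt7 -1.48 by the smallest adjusted p), as Wt1 was. Cdh1, Krt7 and Krt18 rose with hCG in wild type cells by 1.86, 1.34 and 1.39. Their medians ran from 0.038 to 0.578 against -1.255 to -0.351 after PMSG, and from 0.354 to 1.037 against -0.445 to -0.004 after hCG. By probe set, 5 of 24 theca and stroma probe sets were higher and 1 lower after PMSG, and 9 and 0 after hCG. Of 18 oocyte probe sets 2 were higher after PMSG and 6 after hCG. Of 15 surface epithelium probe sets 7 were lower under each regime. The part of these markers in the Wt1, Nr0b1 and Nr5a1 differences was not tested. In bulk cells, fewer cells of a type and less RNA per cell cannot be told apart.

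Granulosa markers (8 genes, Foxl2 and Nr5a2 among them) fell with hCG in wild type cells for 5 genes (9 of 14 probe sets) and rose for 0, with array medians of 0.332 to 0.638 after PMSG and -1.668 to -0.648 after hCG. Beside Foxl2 they were led by Fst (-1.35), Fshr (-1.91) and Hsd17b1 (-1.78), and after hCG Fst, Hsd17b1 and Inhba were 1.51, 1.67 and 1.72 higher in the knockout than in wild type. In the knockout 0 of the 8 passed (limma), and the medians ran from -0.101 to 0.227 and from -0.261 to -0.04. The fall of Foxl2, Foxo1, Nr5a2 and Gata4 was thus accompanied by that of Fst, Fshr and Hsd17b1, and its part in them was not tested. The list's count and medians include Foxl2 and Nr5a2 themselves. Of 11 Sertoli markers, Sox9, Dmrt1 and Dhh among them, 1 was lower in the knockout after PMSG with 0 higher, and 2 were lower after hCG with 1 higher. Of their 14 probe sets, 1 was lower after PMSG, and 2 were lower and 2 higher after hCG. Aard was at -3.10 after PMSG and -3.65 after hCG, Rhox5 at -3.18 and Dhh at 3.81 after hCG. With hCG Rhox5 and Aard rose by 3.94 and 3.60 in wild type cells, and Aard by 3.05 in the knockout. Leukocyte, endothelial and red blood cell lists had no gene that passed in any comparison (limma). Of the 40 named marker calls 27 passed in every fit that left out 1 array; of the oocyte calls after PMSG, Zp2 passed in 2 of the 12 and Gdf9 in 1. Wild type PMSG replicates 1, 2 and 3 ended 7, 7 and 9 of the 40 when left out. In the same order the knockout PMSG arrays ended 2, 6 and 7 calls, the wild type hCG arrays 4, 2 and 5 and the knockout hCG arrays 1, 5 and 5. Centred values do not show which markers are absent.

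**Figure D4:**
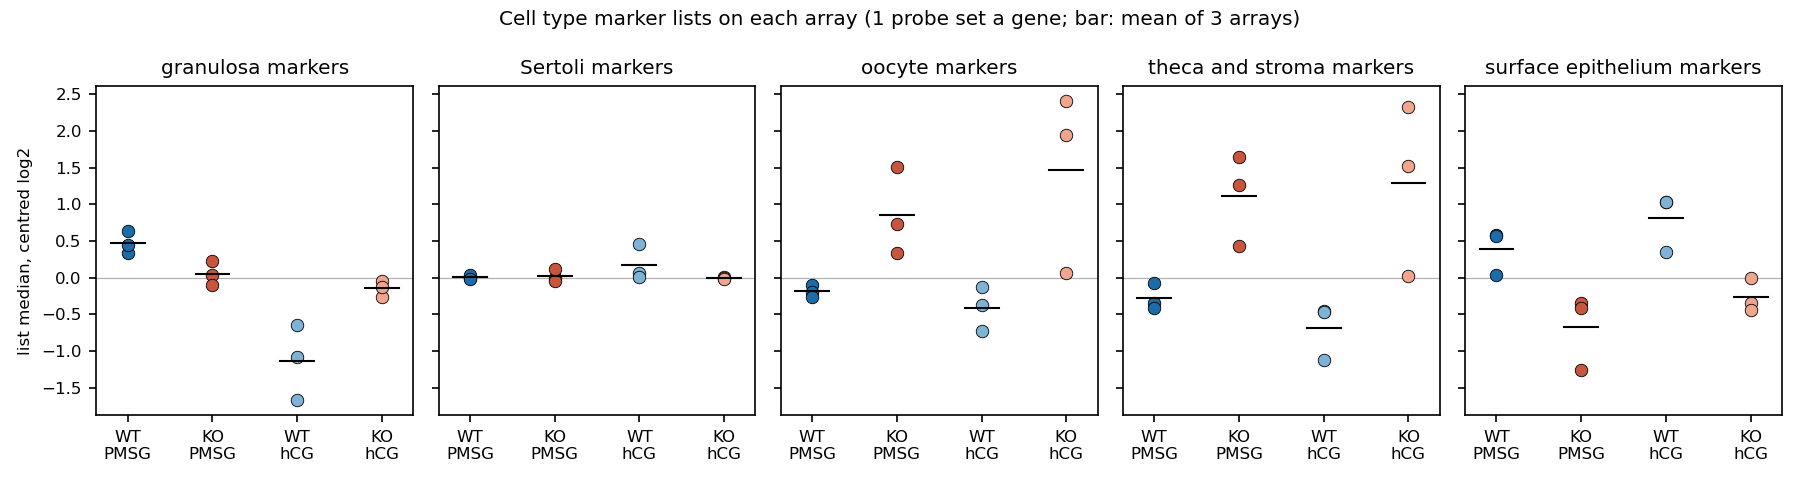
Median of 5 marker lists on each of the 12 arrays, by group (WT wild type, KO Inha knockout), as log2 difference from the probe sets' medians with the probe set of largest SD for each gene; points are arrays and bars means of 3. Theca and stroma and oocyte lists stand higher in the knockout, surface epithelium lower, and granulosa markers are lowest on the wild type hCG arrays (-1.668 to -0.648).

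The genes whose profile over the 12 arrays was most like that of a member were described by Pearson correlation among genes with an SD of at least 0.5, with no test. For Wt1 these were Srgap3 (0.976), Inha (0.971) and Dennd1b (0.967), and for Nr0b1 Plcxd2 (0.991), Rgl3 (0.984) and Cxxc4 (0.984). For Nr5a1 1418315_at they were Clec14a (0.957), Mtss1 (0.943) and Satb1 (0.931). For Foxo1 1416982_at they were Fam13a (0.981), Thra (0.979) and Hint2 (0.975), for 1416983_s_at Tnni3 (0.984), Lyplal1 (0.983) and Hint2 (0.98), and for 1416981_at Vwa8 (0.973), Zfp385b (0.972) and Dock9 (0.97). Foxl2 1456410_at came closest to Fam13a (0.959), then the member Nr5a2 (0.95, probe set 1420410_at) and Pfkm (0.947), and 1444002_at to Fam13a (0.975), Gja1 (0.943) and Jak1 (0.94). Nr5a2 1456521_at came closest to Mef2c (0.983), 8030451A03Rik (0.977) and Myo6 (0.973), and 1449706_s_at to Myo6 (0.968), Zfp385b (0.963) and Pfkm (0.963). Nr5a2 1420410_at came closest to the member Foxl2 (0.95), Dpf3 (0.942) and Fggy (0.933). Gata4 1418863_at had lower values, with Cbfa2t3 (0.915), Arrdc4 (0.907) and Prkar2b (0.9), and 1418864_at was nearest to Bbs9 (0.947), Slc12a7 (0.934) and Kansl1 (0.932). The points of each correlation are the same 12 arrays in the same 4 groups.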

How the data were processed

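The 12 arrays were analysed from the authors' deposited table of 45101 probe sets. Per the submitters' processing notes the arrays were processed with GCRMA; the version is not given in the sources used here. Deposited values are on a log2 scale, and tested on the file every probe set's median over the 12 arrays is 0, so the values were centred per probe set before deposit. Scanner files were not analysed here. GEO's platform annotation named the probe sets: 34945 with 1 gene were tested, 932 with several genes, 9160 with none and 64 controls were left out. Groups of 3 came from the labels, which call the samples independent.

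A group-means model over all 12 arrays was fitted with limma 3.58.1 (R 4.3.3; lmFit, eBayes) to all tested probe sets without a filter, and each of the 5 contrasts had its own Benjamini-Hochberg adjustment; an adjusted p under 0.05 was called. The interaction is the knockout's hCG change minus the wild type's. A pairwise exact permutation test of 3 against 3 arrays was not used, since it cannot go below 0.10. The fit was checked on simulated data with independent arrays, so that check does not cover arrays that vary together. Alternatives were a filter keeping the upper 60% of probe sets by SD, that filter with 1 probe set a gene, quantile normalization, array weights, robust empirical Bayes, the replicate number as a block, the number in the array name as a random block, early and late serial numbers, and leaving out each array.

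The text names Inha, every member probe set, of each other list the called genes with the smallest adjusted p (up to 4 a comparison), and for each called member the 3 most similar genes. A listed gene is given by its probe set with the smallest p in that comparison, which can differ between comparisons. The members and lists were chosen with earlier results of these data known. Listed genes without a single-gene probe set, such as Cyp19a1 and Lhcgr, were not analysed here.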

Additional observations from a re-analysis of the deposited data

Results flagged for a closer look

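For 7 member probe sets every knockout array lay below the wild type mean after PMSG and above it after hCG, while the interaction test did not pass, so a difference between the regimes is not established. The interaction was 4.32 for Foxl2 1444002_at (limma adjusted p = 0.332) and 1.72 for Foxl2 1456410_at (adjusted p = 0.179). It was 1.24 for Foxo1 1416981_at (adjusted p = 0.391) and 1.61 for Foxo1 1416982_at (adjusted p = 0.214). It was 0.91 for Nr5a2 1420410_at (adjusted p = 0.411). For Gata4 it was 2.01 on 1418863_at (adjusted p = 0.0919) and 2.97 on 1418864_at (adjusted p = 0.232). On Foxl2 1444002_at and both Gata4 probe sets the hCG changes also ran opposite ways, at -3.97, -1.52 and -2.38 in wild type and 0.36, 0.49 and 0.60 in the knockout.

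Among the fate partner genes 2 passed the interaction test. Of the ovarian partner probe sets, 3 were called higher with hCG in the knockout, all of Runx1, and only 1 of these passed the interaction test. On that probe set Runx1 rose less with hCG in the knockout (interaction -2.61, limma adjusted p = 0.0318). Of the 12 fits that left out 1 array that call held in 5, those without wild type PMSG replicate 1, wild type hCG replicate 1 or 2, or knockout hCG replicate 1 or 2. It was lost with the replicate block (adjusted p = 0.114), the array-name number as a random block, repeated quantile normalization and the early arrays alone (0.141). Cyp26b1 fell with hCG in the knockout and changed by 0.01 in wild type (interaction -1.13, adjusted p = 0.0104), and it passed in each of those 12 fits but not with the replicate block (adjusted p = 0.114) or on the early arrays alone (0.142).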

How the results depend on the processing

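Of the members' 2371 log2 changes under the alternatives, 2241 kept their side of the threshold, 75 lost a call and 54 gained one. The sign turned in 116, of which 115 were not called either way and 1 was called once turned, Gata6 1443081_at after PMSG, at -2.15 with array weights against 0.15. Array weights, which ran from 0.125 (knockout PMSG replicate 3) to 7.639 (knockout PMSG replicate 1), raised the members called to 9 after PMSG (from 3), 10 between genotypes after hCG (from 2), 4 in the knockout's hCG response (from 0) and 11 in the interaction (from 0); the cause was not tested. Early arrays alone gave 0 after PMSG, 3 in the wild type hCG response (from 11) and 1 in the interaction, and late arrays alone 0 between genotypes after hCG and 4 in the knockout's hCG response; these fits hold fewer samples. The early fit has 1 array in each hCG group, and the late fit has 1 PMSG array, of the knockout. The array-name number as a random block (correlation 0.573) left 1 between genotypes after hCG and 1 in the wild type hCG response, Foxl2 1456410_at. Serial number as a covariate left 7 in that response. Keeping the upper 60% by SD gave 4 between genotypes after hCG and 1 in the interaction, and that filter together with 1 probe set a gene gave 5 in the wild type hCG response.

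Leaving out 1 array gave 2 to 4 members after PMSG, 1 to 7 between genotypes after hCG (7 without wild type hCG replicate 2; 1 without wild type hCG replicate 1 or any knockout hCG array), 6 to 11 in the wild type hCG response (6 without wild type PMSG replicate 2), 0 in the knockout's and 0 to 2 in the interaction (2 without wild type hCG replicate 2). Every called member kept its sign throughout.

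Replicate numbers as a block gave 1 member after PMSG, Nr0b1, and 8 in the wild type hCG response. Deviations of same-numbered samples correlated at 0.171, 0.265 and 0.095 after PMSG, and those of differently numbered samples at -0.193 to 0.018. After hCG the values were 0.208, -0.049 and 0.008 against -0.174 to 0.177. After PMSG all 6 samples correlated best with their own number, after hCG 2 of 6. The values thus went with the numbers after PMSG and not after hCG. The main fit did not pair the samples under either regime, and whether the PMSG samples were pairs was not tested. With the block, Wt1 (limma adjusted p = 0.0516) and Nr5a1 1418315_at (0.0834) did not pass after PMSG.

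Counts over all probe sets moved by over 1.5 times too: after PMSG from 1062 to 9207 with array weights, 2596 with the random block, 542 with the replicate block, 158 on early arrays and 527 at lowest without 1 array. Between genotypes after hCG 4238 became 9309 with array weights, 2672 with 1 probe set a gene and the SD filter together, 2297 with the random block, 1160 on early and 26 on late arrays, and 2488 without wild type hCG replicate 3. In the wild type hCG response 4245 became 10699, 2764, 1962 and 1937 in the same order without late arrays, and 2274 without wild type hCG replicate 3. In the knockout's 419 became 8962 with array weights, 227 with the replicate block, 254 on early and 8721 on late arrays. The interaction's 325 became 7385 with array weights, 75 with the replicate block, and 142 to 789 without 1 array. Centred values carry no signal level, so the limit set by background cannot be read.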

Other observations

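Gata6 probe set 1443081_at lay beside the other Gata6 probe sets with a profile of its own. It read -1.53 and -1.71 on replicate 1 and 1.26 and 1.92 on replicate 2 of the wild type and knockout PMSG groups, whose array names share a number within each replicate. On the remaining 8 arrays it ran from -0.40 to 0.78. It correlated at -0.029 and 0.109 with the other Gata6 probe sets, which correlated at 0.892 with each other over the 12 arrays. Knockout PMSG replicate 3, the late array of its group, stood at one end of its group on many member probe sets. It held the lowest value of its group for Foxl2 1444002_at (-3.04), Gata4 1418864_at (-2.01), Gata6 1425463_at (-1.38) and Wt1 (-1.99), among others. It held the highest for Nr5a2 1449707_at (1.33), Nr5a1 1421730_at (0.90) and Nr0b1 (0.02). The same held for Foxo1 1456529_at (0.30) and every Sox9 and Dmrt1 probe set (0.25 to 0.33). Not every gap was wide, since knockout PMSG replicate 1 read -1.51 for Wt1 and -0.01 for Nr0b1. The array median of knockout PMSG replicate 3, 0.093, was the highest of all arrays.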
